A study of Mus musculus with 6 samples.

Results

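Zinc handling was examined through 10 genes of osteoclast precursors: the zinc importers Slc39a1, Slc39a4, Slc39a6, Slc39a7, Slc39a10 and Slc39a14, the zinc exporter Slc30a1, the metal-sensing transcription factor Mtf1, and the metallothioneins Mt1 and Mt2. They were picked by gene symbol from a table of 24940 genes, for the higher level of Slc39a4 after addition of the leaf extract (LE) of Abeliophyllum distichum, and all 10 were found. Every comparison with the LE libraries is therefore given for these genes as a description, without a test. The cells were bone marrow-derived macrophages, which are primary mouse cells grown with the cytokine M-CSF and able to become osteoclasts when RANKL is added. M-CSF (30 ng/mL) was present in all cultures throughout the 3 days. The -R cells received neither RANKL nor LE. The +R cells also received RANKL at 100 ng/mL, and the R+LE cells received the same RANKL together with LE at 10 μg/mL. The methods of the RNA sequencing do not say whether cells without LE received a vehicle. Each condition had 2 libraries, and none of the samples used here received LE without RANKL. The sources differ on the mice, which were C57BL/6 of 6 to 8 weeks by the labels and male ICR of 6 to 7 weeks by the methods, and on the plates, with 48 wells by the labels and 6 wells by the methods. No source used here says how many mice were pooled or whether the 2 libraries of a condition came from separate cultures, so p-values measure only the spread between these libraries, which may be technical. LE is a methanol extract that holds many compounds.

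Zinc enters the cytosol through transporters of the ZIP family, whose genes are named Slc39a, and leaves it through the ZnT family, whose genes are named Slc30a, either across the plasma membrane or into vesicles and organelles. Free zinc inside the cell is kept low by metallothioneins, which are small cysteine-rich proteins that bind it. When zinc rises, the factor MTF1 binds metal response elements in DNA and activates metallothionein genes and the exporter gene Slc30a1. In bone, zinc is a cofactor of carbonic anhydrase and of matrix metalloproteinases, both of which osteoclasts use to dissolve mineral and matrix.

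The libraries held between 29390192 and 34846382 mapped reads, of which 74.2% to 80.7% lay on genes. Rn45s, the ribosomal RNA precursor, accounted for 4.97% to 6.83% of gene reads without RANKL and for 10.9% to 13.5% with it. Levels are in RPKM, which is reads per 1000 bases of transcript and per 1000000 mapped reads, so levels of different genes can be set side by side. All 7 macrophage genes checked had more than 3 reads in every library, and their summed level was 6458 to 7073 RPKM in -R, 2607 to 3350 RPKM in +R and 3632 to 4046 RPKM in R+LE. The summed level of 8 osteoclast markers was 43.2 to 44.8 RPKM in -R, 1866 to 2123 RPKM in +R and 329 to 380 RPKM in R+LE. Markers of other marrow cells also differed in level between the conditions. The sum of 7 neutrophil markers, led by S100a8, was 15.6 to 17.3 RPKM in -R, 0.716 to 0.816 RPKM in +R and 0.592 to 2.52 RPKM in R+LE, and that of 5 B cell markers was 1.57 to 1.96 RPKM in -R and at most 0.124 RPKM in the other 4 libraries. The sum of 5 T cell markers was 0.802 to 0.852 RPKM in -R, 0.195 to 0.402 RPKM in +R and 0.13 to 0.319 RPKM in R+LE, with Cd3e at 0 in every library. These sums rest on few reads. Only 1 neutrophil marker, 1 T cell marker and 0 B cell markers had more than 3 reads in every library. Only 2 neutrophil markers, S100a8 and S100a9, and 0 of the T and B cell markers had a mean of at least 1 RPKM. The sum of 6 stromal and osteoblast markers was 16.3 to 17.8 RPKM in -R, 11.5 to 15.7 RPKM in +R and 8.9 to 10.4 RPKM in R+LE, and that of 4 endothelial markers was 1.99 to 2.39 RPKM without LE and 0.65 to 0.717 RPKM with it. The part of these differences in the zinc gene results was not tested. In these bulk samples, fewer cells of a type and less RNA per cell cannot be told apart.

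Slc39a4 encodes ZIP4, an importer of the plasma membrane best known from the intestine, where its loss causes the zinc deficiency disease acrodermatitis enteropathica. It lies on chromosome 15 of mm10, from 76612383 to 76616852 on the minus strand. Its level was 0.692 and 0.571 RPKM in -R, 0.722 and 0.81 RPKM in +R, and 5.73 and 4.26 RPKM in R+LE. Both R+LE libraries thus lay far above the other 4, and the +R libraries lay just above the -R libraries. The values rested on 45 and 44 reads in -R, 49 and 55 reads in +R, and 400 and 287 reads in R+LE, and the pooled rate of reads was 6.54 times higher in R+LE than in +R. Tests used limma on log2(RPKM + 0.5), a scale that understates the change of low genes. On that scale, with SE for the standard error and p adjusted by Benjamini-Hochberg over all genes tested, the log2 fold change of Slc39a4 was 2.11 ± 0.19 (SE) from +R to R+LE and 2.27 ± 0.19 (SE) from -R to R+LE. This is the difference for which the genes were chosen, so it has no test here. From -R to +R its log2 fold change was 0.16 ± 0.19 (SE, limma adjusted p = 0.511). The LE libraries are not compared there, but they entered the filter and the shared estimate of the spread. With only the -R and +R libraries fitted, the log2 fold change was 0.16 ± 0.21 (SE, limma adjusted p = 0.545). Left without R+LE replicate 1 or R+LE replicate 2, the log2 fold change from +R to R+LE was 1.91 or 2.3. Over all alternatives it ranged from 1.75, with 1 RPKM added before the log, to 2.68, with voom on the recovered reads.

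**Figure D1:**
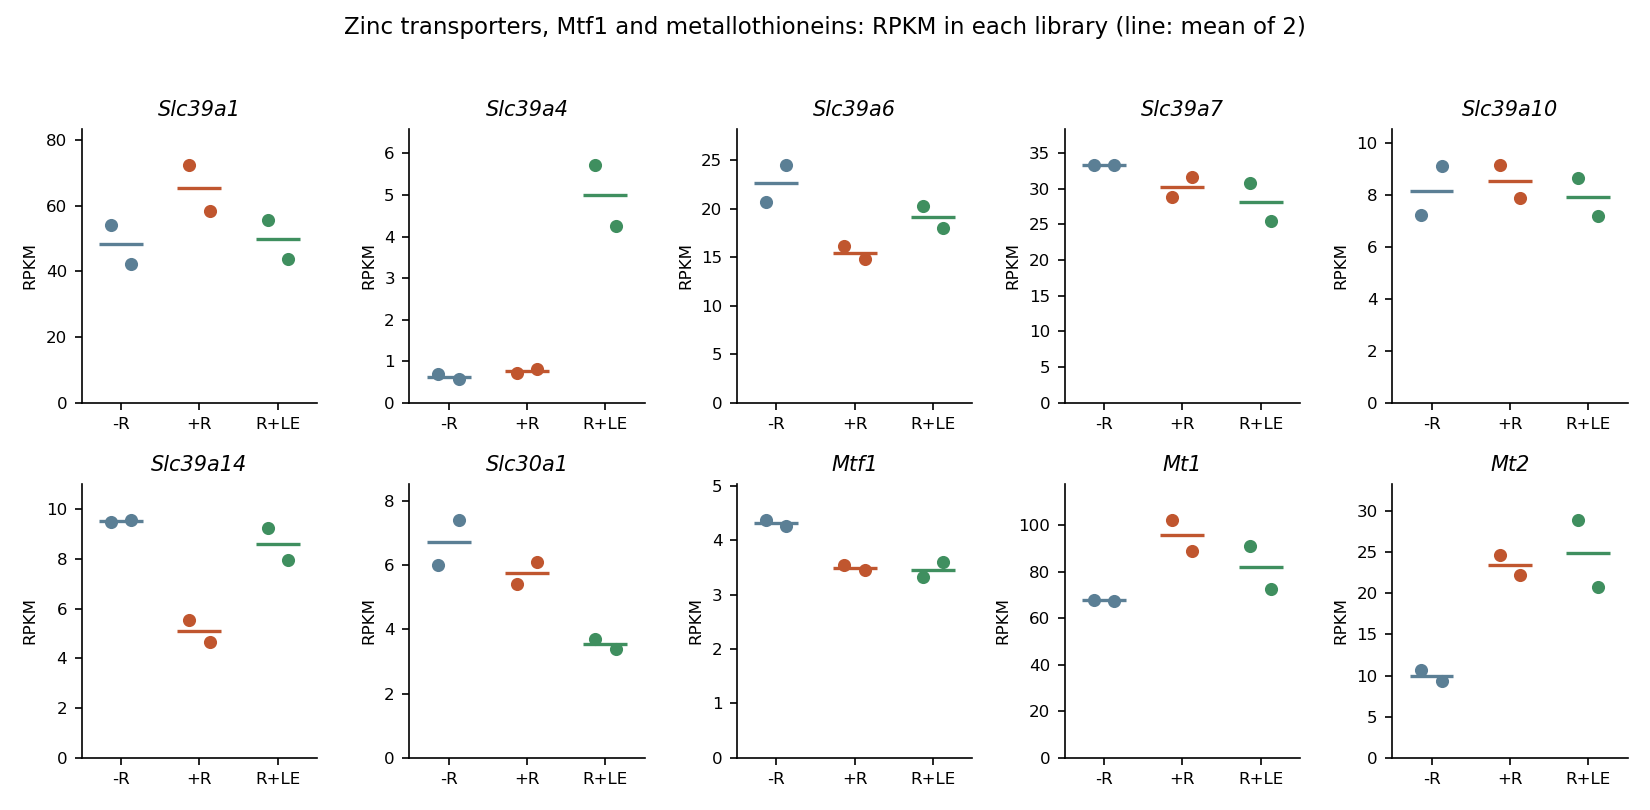
RPKM of the 10 genes in each of the 6 libraries, with 1 panel per gene, a linear axis from 0, points for libraries and lines for the mean of the 2 libraries of each condition (-R, +R, R+LE). The R+LE points of Slc39a4, at 5.73 and 4.26 RPKM, stand above its other 4 points, which lie between 0.571 and 0.81 RPKM, and those of Slc30a1 are the lowest 2 in their panel.

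Slc39a14 encodes ZIP14, which imports zinc and also iron and manganese, and is known as an importer induced by inflammation. It was at 9.49 and 9.58 RPKM in -R, 5.53 and 4.67 RPKM in +R, and 9.25 and 7.96 RPKM in R+LE. The +R libraries were the lowest, and the R+LE libraries lay between them and -R without overlapping either. Slc39a14 fell with RANKL, and its log2 fold change was -0.85 ± 0.14 (SE, limma adjusted p = 0.000194), a change of less than 2-fold. From +R to R+LE its log2 fold change was 0.70 ± 0.14 (SE).

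Slc39a6 and Slc39a10 encode ZIP6 and ZIP10, closely related importers that can pair with each other at the plasma membrane. Slc39a6 was at 20.7 and 24.6 RPKM in -R, 16.1 and 14.8 RPKM in +R, and 20.3 and 18.0 RPKM in R+LE, so that the 3 conditions did not overlap and +R was again the lowest. It fell with RANKL, less than 2-fold, at -0.53 ± 0.14 (SE, limma adjusted p = 0.00685), but the adjusted p was 0.0961 without -R replicate 2 and 0.0582 without +R replicate 2. Slc39a10 was at 7.21 and 9.12 RPKM in -R, 9.16 and 7.88 RPKM in +R, and 8.66 and 7.17 RPKM in R+LE. All 3 conditions overlapped for Slc39a10, and its log2 fold change with RANKL was 0.06 ± 0.16 (SE, limma adjusted p = 0.765), which was -0.10 without -R replicate 1 and -0.04 without +R replicate 1.

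Slc39a1 and Slc39a7 were the most abundant importers. Slc39a1 encodes ZIP1, a broadly expressed importer of the plasma membrane, and was at 54.1 and 42.4 RPKM in -R, 72.5 and 58.3 RPKM in +R, and 55.7 and 43.7 RPKM in R+LE. Both +R libraries were above the other 4. Its log2 fold change with RANKL was 0.44 ± 0.17 (SE, limma adjusted p = 0.0532). Among alternatives that kept every -R and +R library, the adjusted p ranged from 0.0106 with the replicate number as a block to 0.166 with no filter. Whether it passed 0.05 thus depended on the fit and the filter. Over all alternatives, also those with a library left out, the log2 fold change ranged from 0.26 to 0.61. Slc39a7 encodes ZIP7, which releases zinc from the endoplasmic reticulum and Golgi, and was at 33.3 and 33.4 RPKM in -R, 28.8 and 31.6 RPKM in +R, and 30.7 and 25.5 RPKM in R+LE. Both -R libraries were the highest, and the log2 fold change with RANKL was -0.14 ± 0.14 (SE, limma adjusted p = 0.449). The annotated gene Gm20427 shares 1995 exon bases with Slc39a7 on the same strand, so their reads were not separated.

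All 14 ZIP genes were in the table, and their summed level was 166 and 159 RPKM in -R, 182 and 160.0 RPKM in +R, and 175 and 146 RPKM in R+LE, with overlap between all conditions. Slc39a1 led in every library, with 26.7% to 39.8% of the sum, and Slc39a7 was second in every library. Slc39a4 ranked 11 of 14 in each library without LE and 10 of 14 in both libraries with it, where its mean of 4.99 ± 1.04 RPKM (SD, n = 2) passed that of Slc39a8. Its share of the sum was 0.36% to 0.506% without LE and 2.92% to 3.27% with it. Within a condition, several neighbors in the order overlapped between libraries. These were Slc39a14, Slc39a11, Slc39a10 and Slc39a3 in -R, Slc39a10 and Slc39a11 in +R, and Slc39a14, Slc39a10 and Slc39a11 in R+LE, where Slc39a2 and Slc39a12, both at or near 0, were not separated either.

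**Figure D2:**
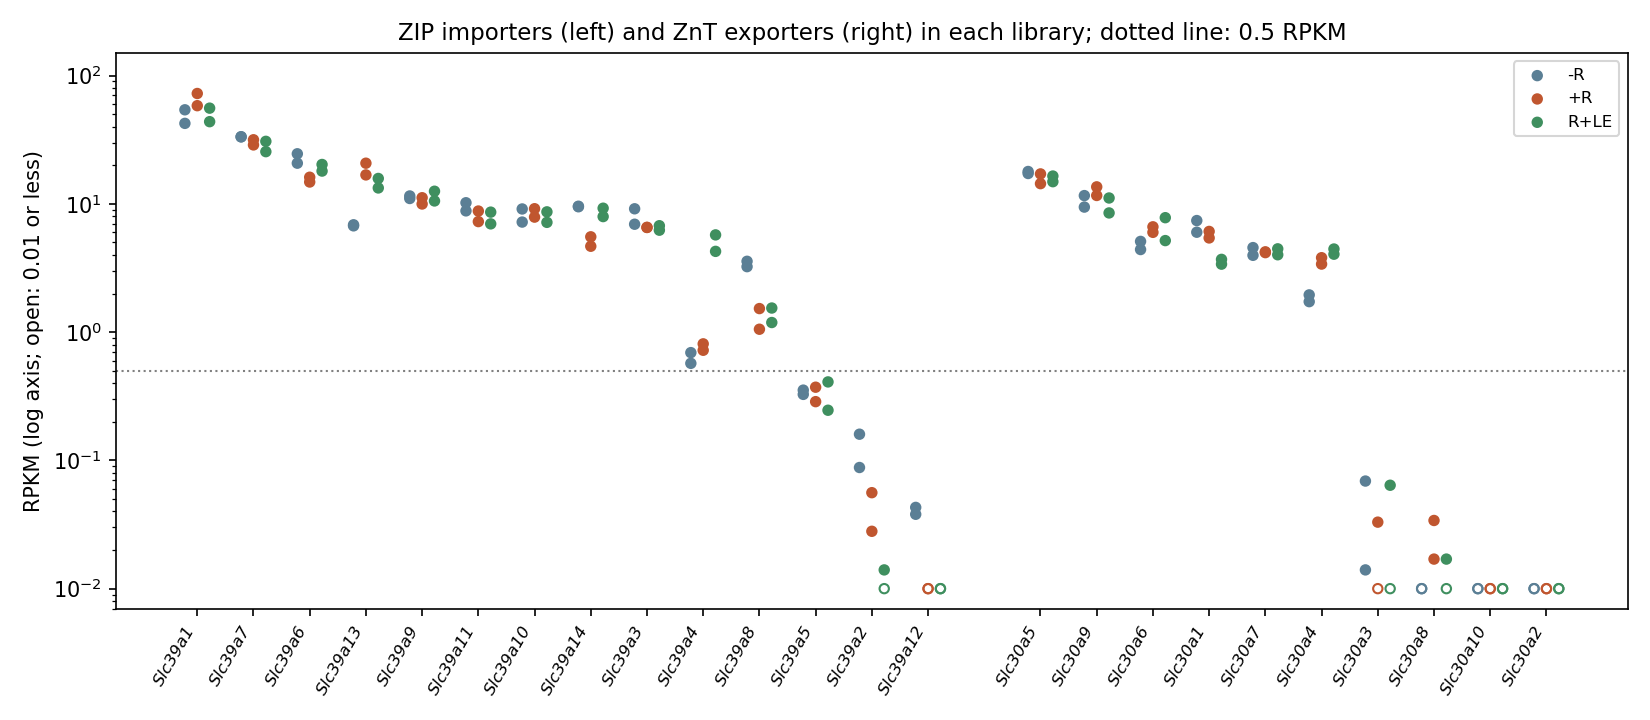
RPKM on a log axis for the 14 ZIP genes and the 10 ZnT genes in each library, colored by condition, with open circles for values of 0.01 RPKM or less and a dotted line at the filter of 0.5 RPKM. Slc39a1 is the highest in every library, Slc39a4 is the importer whose R+LE points leave the others, and Slc30a2 and Slc30a10 lie on the bottom line.

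Slc30a1 encodes ZnT1, the main zinc exporter of the plasma membrane. It was at 6.01 and 7.41 RPKM in -R, 5.42 and 6.09 RPKM in +R, and 3.69 and 3.39 RPKM in R+LE. The R+LE libraries were the lowest 2, while -R and +R overlapped. Its log2 fold change with RANKL was -0.20 ± 0.15 (SE, limma adjusted p = 0.298). With LE its log2 fold change was -0.63 ± 0.15 (SE) against +R and -0.83 ± 0.15 (SE) against -R, and these 2 values are descriptions. A transcript on the opposite strand, 1700034H15Rik, shares 468 exon bases with Slc30a1 and was at 0.332 to 0.882 RPKM, and reads were counted without regard to strand.

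Mtf1, the metal sensor, was at 4.38 and 4.27 RPKM in -R, 3.54 and 3.45 RPKM in +R, and 3.32 and 3.6 RPKM in R+LE. Both -R libraries were above the other 4, and +R and R+LE overlapped. Its log2 fold change with RANKL was -0.27 ± 0.14 (SE, limma adjusted p = 0.136), and from +R to R+LE it was -0.01 ± 0.14 (SE). Mtf1 shares 721 exon bases with 1110065P20Rik on the opposite strand, a gene at 4.63 to 7.62 RPKM, and reads of the 2 strands were not separated.

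Mt1 and Mt2 are the broadly expressed metallothionein genes. They lie in the same direction on chromosome 8 of mm10, Mt2 from 94172618 to 94173567 and Mt1 from 94179089 to 94180327, with 5521 bases between them. Mt3, best known from the brain, ends 18469 bases before Mt2, and Mt4 precedes Mt3, so that the 4 genes span 43124 bases. The longest run of bases shared by the transcripts of Mt1 and Mt2 was 20, and that of either with Mt3 was at most 27, shorter than the reads of 100 bases. The 250 bases upstream of the RefSeq start of Mt1, Mt2, Mt3 and the exporter gene Slc30a1 are shown. Mt1, Mt2 and Slc30a1 form the metal-response branch of the set, and Mt3, outside the set, is shown as their neighbor on chromosome 8 (Mt1 and Mt2) for comparison. Capitals mark the core of the metal response element, searched as TGCACNC and TGCGCNC on both strands, and the build is GRCm38.p6.
Mt1 (plus strand, chr8:94178839-94179088): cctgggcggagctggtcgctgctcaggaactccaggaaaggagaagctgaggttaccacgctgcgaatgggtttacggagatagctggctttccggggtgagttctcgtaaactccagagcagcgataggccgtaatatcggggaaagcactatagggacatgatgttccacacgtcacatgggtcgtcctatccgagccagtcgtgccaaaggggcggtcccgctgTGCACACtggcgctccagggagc
Mt2 (plus strand, chr8:94172368-94172617): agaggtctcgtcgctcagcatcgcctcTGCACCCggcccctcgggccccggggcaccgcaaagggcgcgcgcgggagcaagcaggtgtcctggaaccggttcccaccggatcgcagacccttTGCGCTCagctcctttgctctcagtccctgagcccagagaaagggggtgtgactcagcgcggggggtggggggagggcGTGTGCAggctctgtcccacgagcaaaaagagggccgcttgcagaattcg
Mt3 (plus strand, chr8:94152357-94152606): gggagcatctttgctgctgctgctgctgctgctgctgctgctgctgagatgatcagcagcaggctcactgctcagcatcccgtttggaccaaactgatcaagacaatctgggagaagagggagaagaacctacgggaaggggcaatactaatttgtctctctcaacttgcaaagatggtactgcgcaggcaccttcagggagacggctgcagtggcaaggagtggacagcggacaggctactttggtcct
Slc30a1 (plus strand, chr1:191906531-191906780): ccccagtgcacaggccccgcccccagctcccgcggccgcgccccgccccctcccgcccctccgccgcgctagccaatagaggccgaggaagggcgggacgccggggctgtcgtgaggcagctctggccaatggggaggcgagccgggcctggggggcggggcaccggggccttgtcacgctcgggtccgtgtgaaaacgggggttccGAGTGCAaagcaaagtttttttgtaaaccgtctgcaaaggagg

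The window of Mt2 held 3 cores, those of Mt1 and Slc30a1 held 1 each, and that of Mt3 held none. Of 32536 upstream windows of the same length, 21.5% held at least 1 core and 1.28% held at least 3, so a single core is common. The annotated starts of Mt1 and Mt2 lie upstream of a TATAAA run, which begins at base 129 of the Mt1 transcript and base 90 of the Mt2 transcript in GENCODE M21, and the bases before that run held 4 cores in Mt1 and 3 in Mt2. The core nearest to the run is shown for both genes in 30 bases of transcript.
Mt1 (bases 98 to 127): aaacccttTGCGCCCggactcgtccaacga
Mt2 (bases 58 to 87): ggagctttTGCGCTCgacccaatactctcc
The core of the antioxidant response element, searched as TGACNNNGC on both strands, was found in 10.2% of all windows, and those of Mt2, Slc30a1 and Slc39a1 held 1 each, while Mt1, Mt3, Mtf1, Slc39a7 and both windows of Slc39a10 held none. No antioxidant core overlapped a metal response core in the windows shown. Upstream windows were matched for 7 of the 10 genes, and Slc39a4, Slc39a6 and Slc39a14 were not among them.

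Mt1 was the most abundant of the 10 genes, at 68.0 and 67.4 RPKM in -R, 102 and 89.0 RPKM in +R, and 91.2 and 72.8 RPKM in R+LE. Every library with RANKL was above both -R libraries, and +R and R+LE overlapped. Mt1 rose with RANKL, less than 2-fold, at a log2 fold change of 0.49 ± 0.16 (SE, limma adjusted p = 0.0186), and the adjusted p was 0.116 without -R replicate 1, 0.119 without -R replicate 2 and 0.175 without +R replicate 1. From +R to R+LE its log2 fold change was -0.23 ± 0.16 (SE).

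Mt2 was at 10.6 and 9.38 RPKM in -R, 24.7 and 22.2 RPKM in +R, and 28.9 and 20.8 RPKM in R+LE, from 172 to 503 reads. Again every library with RANKL was above both -R libraries, and +R and R+LE overlapped. Mt2 rose 2.28-fold with RANKL on the fitted scale, that is by a log2 change of 1.19 ± 0.16 (SE, limma adjusted p = 2.45e-05), and it was the only one of the 10 genes called for RANKL. From +R to R+LE its log2 fold change was 0.07 ± 0.16 (SE), with -0.16 without R+LE replicate 1 and 0.30 without R+LE replicate 2. Gm45774 on the opposite strand shares 355 exon bases with Mt2. The level of Mt1 was 6.4 and 7.19 times that of Mt2 in -R, 4.15 and 4.02 times in +R, and 3.15 and 3.5 times in R+LE. The ratio was lower in all 4 libraries with RANKL, but 2 libraries against 2 cannot give an exact two-sided permutation p under 0.333.

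For counts, a call needed both an adjusted p under 0.05 and a change of 2-fold or more, among the 11595 genes whose mean reached 0.5 RPKM. All 10 genes passed that filter, and their mean over the 4 libraries without LE was also above it, with the lowest, Slc39a4, at 0.699 RPKM. From -R to +R, 1 of the 10 was called, against 15.5% of all genes tested (6.58% higher, 8.92% lower). Without the requirement of 2-fold, 4 of 10 had an adjusted p under 0.05, with Mt1 and Mt2 higher and Slc39a6 and Slc39a14 lower, against 45.4% of all genes (23.9% higher, 21.5% lower). The conditions -R and +R did not overlap for 8 of 10, against 75.2%, with 4 higher against 40.3% and 4 lower against 35.0%. The median log2 fold change was -0.04 for the 10 genes and 0.05 for all genes. The shares called with RANKL among the 10 genes were thus near those of all genes.

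From +R to R+LE, 1 of the 10, Slc39a4, passed the thresholds of a call, against 3.23% of all genes tested, but this is the contrast behind the choice of genes and nothing is read from it. The libraries did not overlap for 5 of 10 against 49.0%, with 3 higher against 19.5% and 2 lower against 29.5%. The median was -0.06 for the 10 genes and -0.05 for all genes. From -R to R+LE, Slc39a4 and Mt2 passed the thresholds, against 10.3% of all genes, and nothing is read from this count either, since it uses the same R+LE libraries. The libraries did not overlap for 8 of 10 against 65.5%, with 3 higher against 31.2% and 5 lower against 34.3%. The median was -0.09 against -0.01. The comparisons share libraries and are not independent of one another. Under all 17 alternatives run, Mt2 was the 1 gene of the 10 called from -R to +R.

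**Figure D3:**
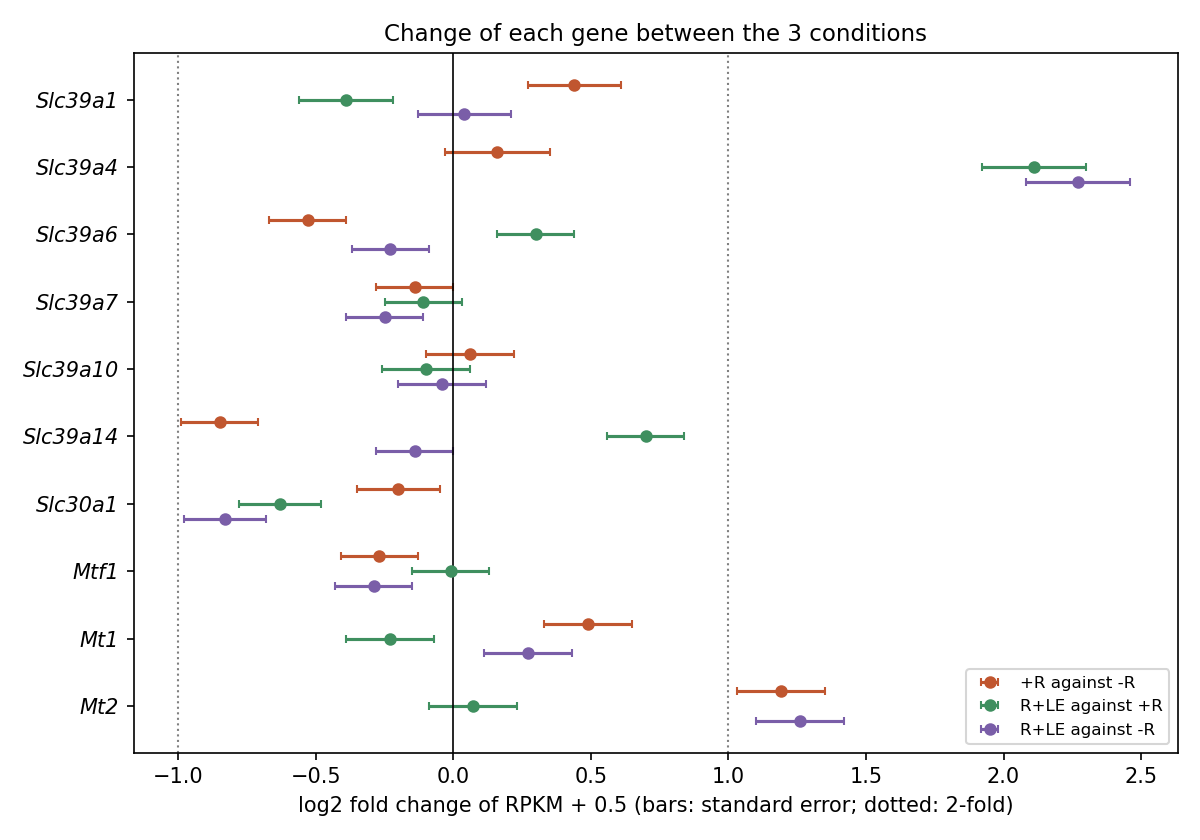
Log2 fold change of RPKM + 0.5 for each gene in the 3 comparisons, as points with standard errors from limma, and dotted lines at 2-fold. Slc39a4 stands at 2.11 and 2.27 in the comparisons with R+LE, Mt2 at 1.19 and 1.26 in those with -R, and Slc39a14 at -0.85 and 0.70 on either side of 0.

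The other genes of zinc handling were taken from a list of 25 genes: the 8 remaining ZIP genes, the 9 remaining ZnT genes, Mt3 and Mt4, and 6 genes known as targets of MTF1. Of these, 17 passed the filter. The other 8 were at 24 reads or fewer in every library. Slc39a5 had 15 to 24 reads and Slc39a2 had 0 to 13. Slc30a2 and Mt4 had no read in any library, which allows up to 0.0329 RPKM for Slc30a2 and up to 0.264 RPKM for Mt4 at 3 reads, by counting error only. Slc39a12, Slc30a3, Slc30a8 and Slc30a10 had at most 4 reads. From -R to +R, 4 of the 17 were called lower, against 8.92% of all genes tested, and 3 passed the thresholds as higher, against 6.58%. Those 3 included Mt3 and Pgf, which passed the filter only through the libraries with RANKL, so nothing is read from the count of higher genes. The list was chosen with earlier results of these data known.

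Among the remaining importers, 1 of 5 tested was called higher with RANKL, against 6.58% of all genes tested, and 1 lower, against 8.92%. Slc39a13 encodes ZIP13, a transporter of intracellular vesicles whose loss causes a skeletal and connective tissue disorder. It was at 6.87 and 6.74 RPKM in -R, 20.7 and 16.8 RPKM in +R, and 15.8 and 13.3 RPKM in R+LE, with no overlap between the 3 conditions. It rose with RANKL, by a log2 change of 1.39 ± 0.15 (SE, limma adjusted p = 1.92e-06), and from +R to R+LE its log2 fold change was -0.36 ± 0.15 (SE). It shares 97 exon bases with Psmc3 on the opposite strand, a gene at 83.5 to 102 RPKM, and reads of the 2 strands were not separated. Slc39a13 had 398 and 463 reads in -R, and the part of Psmc3 in them was not tested. Slc39a8 encodes ZIP8, an importer of zinc and manganese. It was at 3.24 and 3.57 RPKM in -R, 1.53 and 1.05 RPKM in +R, and 1.54 and 1.19 RPKM in R+LE, so that all 4 libraries with RANKL were below both without. It fell with RANKL, by a log2 change of -1.14 ± 0.19 (SE, limma adjusted p = 0.000149), which was -0.94, under 2-fold, without +R replicate 2. Slc39a3, Slc39a9 and Slc39a11 had log2 fold changes between -0.27 and -0.09 with RANKL and did not pass an adjusted p of 0.05.

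Of the 5 remaining exporters tested, none was called for RANKL by limma and 1 had an adjusted p under 0.05, as did 45.4% of all genes. That was Slc30a4, which encodes ZnT4, a transporter that loads zinc into vesicles. It was at 1.73 and 1.95 RPKM in -R, 3.8 and 3.39 RPKM in +R, and 4.45 and 4.05 RPKM in R+LE, and the 3 conditions did not overlap. It rose with RANKL, less than 2-fold, at 0.81 ± 0.15 on the log2 scale (SE, limma adjusted p = 0.00052). Slc30a5, Slc30a6 and Slc30a7, which supply zinc to the secretory pathway, and Slc30a9 of mitochondria had log2 fold changes between -0.16 and 0.38, and their adjusted p in limma was 0.0908 or more. Annotated genes on the opposite strand also share exon bases with Slc30a4 (130), Slc30a7 (637 and 1165), Slc39a9 (103) and Ndrg1 (419 and 137). The gene that overlaps Slc39a9 is Erh, at 50.6 to 87.1 RPKM. Slc30a5 was the most abundant exporter in every library, with 31.4% to 40.2% of the summed level of the 10 ZnT genes. That sum was 42.9 and 48.5 RPKM in -R, 50.7 and 45.8 RPKM in +R, and 48.1 and 40.0 RPKM in R+LE, with overlap between the conditions.

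Mt3 showed the widest relative range of any metallothionein. It was at 0.128 and 0.108 RPKM in -R, 21.7 and 16.7 RPKM in +R, and 9.57 and 5.36 RPKM in R+LE. The conditions did not overlap, and R+LE lay between the others. The -R values rested on 2 reads each, against 355 and 274 reads in +R and 161 and 87 reads in R+LE. The rate of pooled reads was 164 times higher in +R than in -R, with an exact 95% interval of 63.9 to 606 for counting error only. Mt3 was higher with RANKL, by a log2 change of 4.98 ± 0.21 (SE). It passed the filter of 0.5 RPKM only through the libraries with RANKL, so this change is given as a description, without a test. From +R to R+LE its log2 fold change was -1.35 ± 0.21 (SE). Mt3 made up 0.14% to 0.163% of the summed metallothionein level in -R, 13.1% to 14.6% in +R and 5.42% to 7.38% in R+LE. That sum was 78.7 and 76.9 RPKM in -R, 149 and 128 RPKM in +R, and 130.0 and 98.9 RPKM in R+LE. The osteoclast markers moved in the same order of conditions as Mt3, from at most 44.8 RPKM in -R to at least 1866 RPKM in +R and at most 380 RPKM in R+LE, and the part of osteoclast number in the level of Mt3 was not tested.

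**Figure D4:**
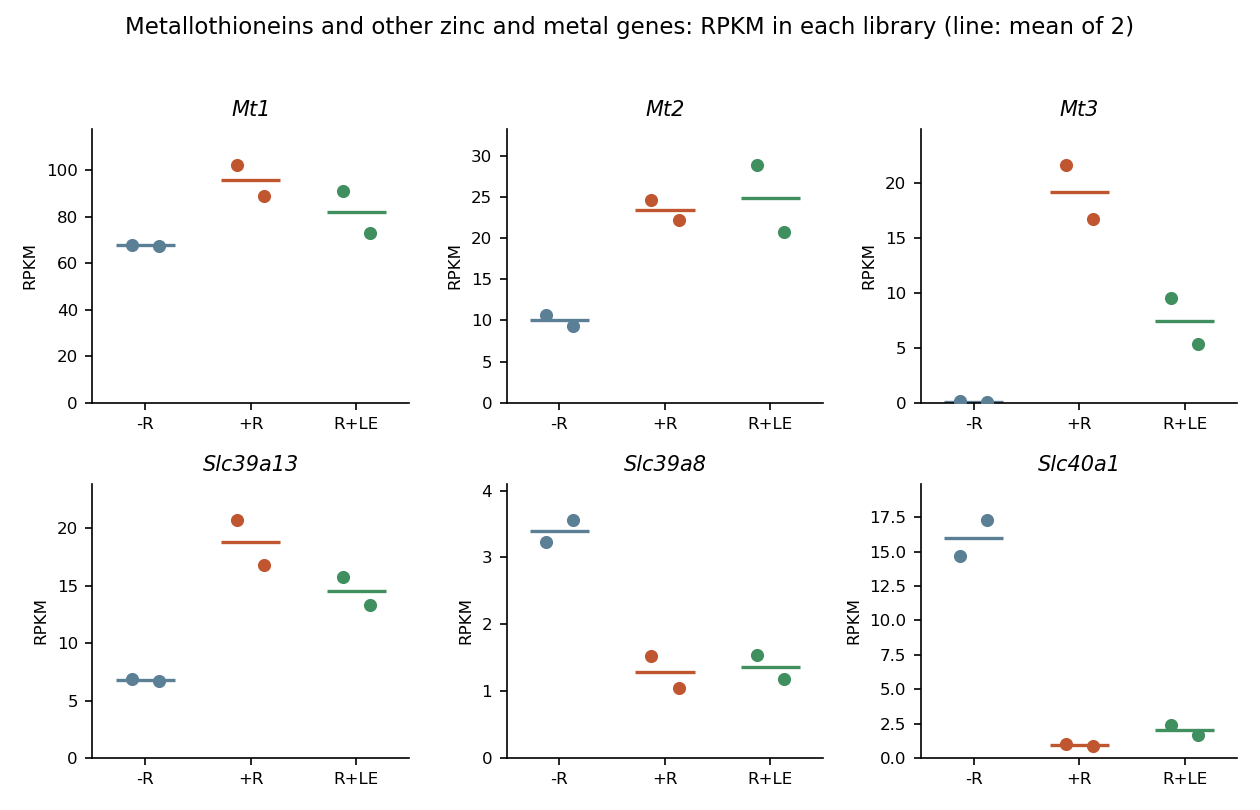
RPKM in each library, on a linear axis from 0, for the metallothioneins Mt1, Mt2 and Mt3, the transporters Slc39a13 and Slc39a8, and the iron exporter Slc40a1, with lines at the mean of the 2 libraries of a condition. Mt3 goes from 0.128 and 0.108 RPKM in -R to 21.7 and 16.7 RPKM in +R, while Slc40a1 falls from 14.7 and 17.3 RPKM to 0.976 and 0.87 RPKM.

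The 6 targets of MTF1 outside the metallothioneins and Slc30a1 had 3 log2 fold changes above 0 with RANKL, that of Ndrg1 near 0, and 3 below. Of the 6, 3 were called lower, against 8.92% of all genes tested. Pgf also passed the thresholds, as higher, but is not counted as a call for the reason given below. Slc40a1, which encodes the iron exporter ferroportin, was at 14.7 and 17.3 RPKM in -R, 0.976 and 0.87 RPKM in +R, and 2.42 and 1.69 RPKM in R+LE. It fell by a log2 change of -3.53 ± 0.17 (SE, limma adjusted p = 2.73e-10). Gclc, the catalytic subunit of the first enzyme of glutathione synthesis, was at 45.8 and 60.3 RPKM in -R, 11.7 and 10.4 RPKM in +R, and 25.3 and 21.1 RPKM in R+LE, and it fell by a log2 change of -2.20 ± 0.16 (SE, limma adjusted p = 2.85e-08). Both genes were lowest in +R and did not overlap between any 2 conditions. Selenow, a selenoprotein gene, fell by a log2 change of -1.41 ± 0.14 (SE, limma adjusted p = 6.19e-07). Pgf, a growth factor gene of the VEGF family, went from 10 and 3 reads in -R to 97 and 95 reads in +R, at a log2 change of 1.97 ± 0.22 (SE). Like Mt3, Pgf passed the filter only through the libraries with RANKL, so its change is a description without a test. Csrp1 rose by less than 2-fold, with 0.46 ± 0.13 (SE, limma adjusted p = 0.0117) on the log2 scale, and Ndrg1 was at 0.03 ± 0.21 (SE, limma adjusted p = 0.916).

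From +R to R+LE, 1 of the 17 tested genes of this list was called higher, Gclc, against 1.46% of all genes, and 1 was called lower, Mt3, against 1.78%. The log2 fold change of Gclc was 1.04 ± 0.16 (SE), with 0.96 without +R replicate 2 and 0.91 without R+LE replicate 1, both under 2-fold. Mt3 was not called without R+LE replicate 2, where its log2 fold change was -0.96, nor with no filter (-1.35, adjusted p = 0.0803 in limma). Without R+LE replicate 2, Slc40a1 (1.04) and Pgf (-1.02) were called. Against -R, 4 of the 17 were called higher in R+LE, against 3.92% of all genes, and 4 lower, against 6.36%. The higher genes were Mt3, Slc39a13, Pgf and Slc30a4, and the lower genes were Slc39a8, Slc40a1, Gclc and Selenow. Of the higher genes, Mt3 and Pgf passed the filter only through the libraries with RANKL, so nothing is read from the count of higher genes. The log2 fold changes of Slc30a4 and Slc39a13 in that comparison were 1.02 and 1.04, close to the threshold of 2-fold. Several calls at that threshold depended on 1 library. Slc30a4 was at 0.95 without -R replicate 1 and 0.96 without R+LE replicate 1, and Slc39a13 was at 0.92 without R+LE replicate 1. Slc39a8 was at -0.93 without R+LE replicate 2, Gclc was at -0.97 without -R replicate 2, and Pgf was at 0.96 without -R replicate 2 and 0.95 without R+LE replicate 2.

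The 5 genes whose profile over the 6 libraries was nearest to that of Slc39a4 were Adh7, Mgst2, Il18rap, Dlgap1 and Uchl1. Likeness was the Euclidean distance between values of log2(RPKM + 0.5) after the mean of each gene was taken away. It was 0.24 for Adh7, 0.59 for Mgst2, 0.79 for Il18rap, 0.86 for Dlgap1 and 0.97 for Uchl1, against a median of 2.65 over the 11568 genes compared. Adh7, an alcohol dehydrogenase gene, was at 0.111 to 0.165 RPKM in the 4 libraries without LE and at 2.83 and 2.32 RPKM in R+LE, so it passed the filter only through the R+LE libraries, as did Il18rap, at 0.388 to 0.482 RPKM without LE and 2.44 and 2.01 RPKM with it. Mgst2, a microsomal glutathione S-transferase gene, was at 1.14 and 1.4 RPKM in -R, 2.25 and 1.81 RPKM in +R, and 13.3 and 8.89 RPKM in R+LE. For each of the 5 genes both R+LE libraries were above the other 4, which follows largely from their choice by distance to Slc39a4. The 0.5 RPKM added before the log shrinks the change of low genes, so the distances depend on it. Adh7 had 10 and 8 reads in +R and 185 and 146 reads in R+LE. Slc39a4 had 49 and 55 reads in +R and 400 and 287 reads in R+LE. Their log2 fold changes from +R to R+LE were nevertheless 2.26 and 2.11 on this scale. All 6 genes share the same libraries, so their likeness is a description.

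**Figure D5:**
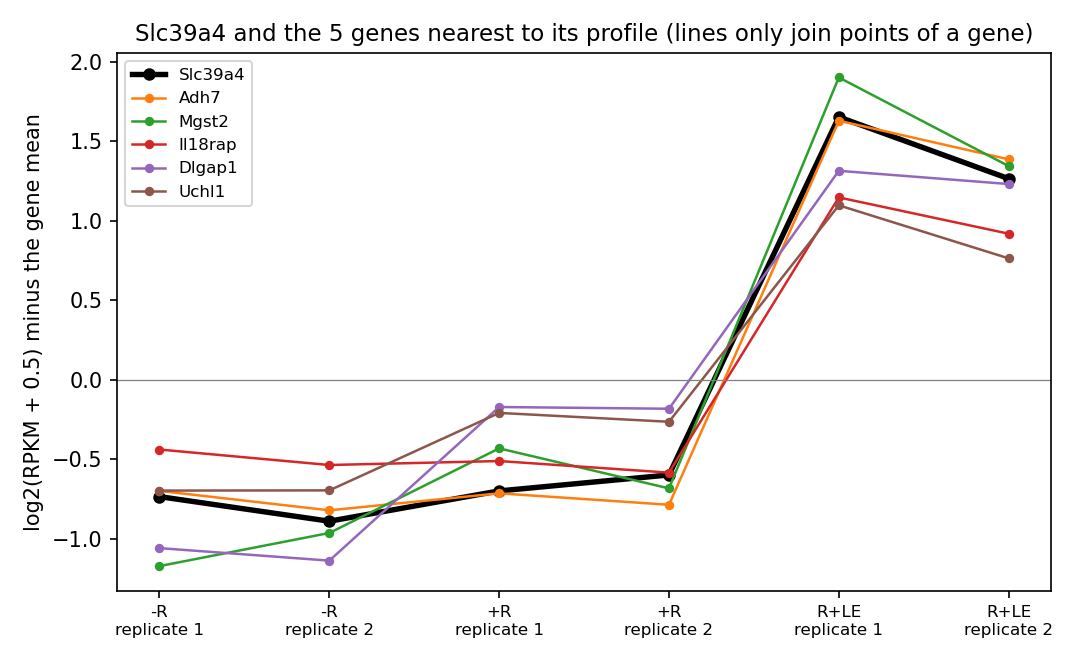
Values of log2(RPKM + 0.5) minus the mean of each gene in the 6 libraries, for Slc39a4 (black) and the 5 genes nearest to it, with lines that only join the points of a gene. The lines run together on this scale, which shrinks the change of low genes such as Adh7. Distances run from 0.24 for Adh7 to 0.97 for Uchl1. All 6 genes are highest in the 2 R+LE libraries, which for the 5 nearest genes follows largely from their choice by distance.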

How the data were processed

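RNA of 6 samples was sequenced in paired ends of 100 bp. The authors counted reads on exons with HOMER, on either strand and with 1 transcript per gene on mm10, and deposited RPKM under column titles that say FPKM. The methods name TopHat as the aligner, while the submitters' processing notes list HISAT2, HOMER and DESeq2, and versions are not given in the sources used here. Whole reads were recovered from RPKM and transcript length (100.0% of the values checked lay within 0.1 read of a whole number after rounding), which gave the depth.

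Samples were grouped by their labels. limma 3.58.1 in R 4.3.3 fitted log2(RPKM + 0.5) of all 6 libraries together, with a variance trend, for the 11595 genes whose mean reached 0.5 RPKM, and Benjamini-Hochberg adjustment covered all of them. Genes were called at an adjusted p below 0.05 and 2-fold. The genes and lists were chosen with earlier results of these data known. The text names all 10 genes, the 25 listed zinc genes, and the 5 nearest to Slc39a4. Symbols turned into dates by a spreadsheet (26) were replaced by transcript identifiers. Upstream sequences are from RefSeq on GRCm38.p6 and transcripts from GENCODE M21. Exon overlaps were computed for the transcript in the table. Tables and figures used Python 3.11.15, numpy 2.4.6, pandas 2.3.3, scipy 1.17.1 and matplotlib 3.10.9. Scripts were tested on simulated data. The alternatives were 16 planned settings and 1 added after seeing the data, which left Rn45s out of the depth.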

Additional observations from a re-analysis of the deposited data

How the results depend on the processing

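Over 17 alternatives, namely other pseudocounts, filters, fits and scalings, voom on the recovered reads and each library left out, Mt2 was in every case the 1 gene of the 10 called from -R to +R. The number of other zinc genes called from +R to R+LE was 2, and it was 1 with no filter (Mt3 lost), 3 with a pseudocount of 0.1 (Slc40a1 added) and 4 with voom. From -R to R+LE it was 8, and it was 4 with a pseudocount of 1 and 6 with quantile normalization. From -R to +R it was 7, and 6 with a pseudocount of 1 (Slc39a8 lost). Both the 7 and the 8 include Mt3 and Pgf, which passed the filter only through the libraries with RANKL. Some of these calls also changed with a library left out, as given above. The cause was not tested. The sign of Slc39a10 from -R to +R was reversed in 2 cases, and its log2 fold change ranged from -0.10 to 0.22 with a library left out. Centring on the median took away shifts of -0.00338, -0.051 and -0.0544 (log2), and changed the split of all genes called from +R to R+LE from 169 higher and 206 lower to 200 and 180. Labels share replicate numbers across conditions, and deviations of same-numbered libraries correlated at -0.05 between -R and +R, 0.25 between +R and R+LE and 0.11 between -R and R+LE. These values do not show whether same-numbered libraries are paired, and the main fit took them as unpaired. With the replicate number as a block, 1 of the 10 genes was called from -R to +R, and 1801, 389 and 1200 of all genes were called in the 3 comparisons. Slc39a1 from -R to +R then had an adjusted p of 0.0106 in limma, against 0.0532 in the main fit. Mt1 from -R to +R had an adjusted p of 0.053 with no filter, against 0.0186 (limma, range over alternatives 0.000704 to 0.175). Depth limits Slc39a4 without LE (44 to 55 reads) and Mt3 in -R (2 reads).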
